A study of Homo sapiens with 15 samples.

Results

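LLPSEp53_2 is one of 2 constructs, named in the labels after p53 and its liquid-liquid phase separation (LLPS) propensity, that were overexpressed in H1299 cells and set against p53 itself. The comparison described here took the 3 LLPSEp53_2 libraries and the 3 p53 libraries collected in 2022, which are 6 of the 15 RNA-seq libraries of the series. All 61552 gene IDs of the count files were read, and 17459 genes had enough counts to be tested. H1299 is a human lung cancer line that lacks functional p53, so the overexpressed construct is its source of p53 activity, and all cells of this comparison carry an overexpressed construct. No control-vector library of 2022 was used here. The other construct of that year, LLPSEp53_1 (3 libraries), is given beside the values, and 3 libraries with wild-type p53 (WT) and 3 with control vector (Ctrl), collected in 2023, were used to find the genes that p53 raises in these cells. The labels give neither the sequence nor the structure of LLPSEp53_2, nor the promoter, dose or time of expression, and do not say that the libraries of a group came from separate cultures. The p-values therefore speak only for the variation among these libraries, some of which may be technical.

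By its label, p53 replicate 2 was collected in a different batch, and it was given a term of its own in the model. The p53 level was thus taken from replicates 1 and 3. The 6 libraries held 15297603 to 16438272 counted reads, which puts the limit that a count of 0 allows (3 counts) at 0.183 to 0.196 CPM (reads of the gene scaled to library size). Mitochondrially encoded genes took 1.451 to 2.214% of the reads of these libraries, and cytosolic ribosomal protein genes 3.211 to 5.435%. Over the 2022 libraries the first principal component, with 54.1% of the variance, set p53 replicate 2 apart from the other 8 libraries. Of 21 markers of other cell types, 7 passed the filter on low counts, and those 7 summed to 49.1 and 51.5 CPM in p53 replicates 1 and 3 and to 45.4, 48.3 and 47.9 CPM in LLPSEp53_2 replicates 1 to 3, most of it from MBP. Their median log2 change was -0.52 with 6 of 7 below 0, and their median level was 1.41 and 2.05 CPM with p53 and 0.740, 0.842 and 1.195 CPM with LLPSEp53_2.

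The p53 protein is a transcription factor that binds DNA as a tetramer and raises genes of cell cycle arrest, apoptosis, DNA repair and metabolism, among them CDKN1A and its own inhibitor MDM2. Liquid-liquid phase separation is the process by which proteins with disordered or oligomerising regions concentrate into droplets, and for several transcription factors it has been studied for its part in how genes are activated. The question that the series' description sets is how constructs that differ from p53 in this property change the genes that p53 regulates.

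With LLPSEp53_2, far more genes were lower than higher. Of the 17459 genes tested, 319 (1.83%) were lower and 18 (0.103%) higher than with p53 at an adjusted p under 0.05 in edgeR's quasi-likelihood test, and 232 (1.33%) and 11 (0.0630%) of these changed at least 2-fold. Both directions together come to 337 genes (1.93%). In all of them the LLPSEp53_2 libraries did not overlap with p53 replicates 1 and 3, where 17.5% of all genes tested had all 3 LLPSEp53_2 libraries below and 15.6% had them all above. The p53 replicate 2 library, which set no level in the test, was above every LLPSEp53_2 library in 291 of the 319 genes that fell (91.2%), beside 40.1% of all genes tested. The median log2 change over all genes tested was 0.006. Of the genes that fell, 301 were protein coding and 12 were pseudogenes, and their median GC content was 56.7%, against 48.3% for all genes tested. With each library's trend with GC content removed, 317 of the 319 falls remained. The number of falls depended on single libraries. It was 86 without p53 replicate 3 and 126 without p53 replicate 1. Without LLPSEp53_2 replicates 1, 2 and 3 it was 152, 152 and 183. It was 691 without LLPSEp53_1 replicate 3, a library of neither group that enters the filter, the scaling and the estimate of the spread. The rises numbered 7 without p53 replicate 3, 1 without p53 replicate 1, 3, 2 and 8 without LLPSEp53_2 replicates 1, 2 and 3, and 56, 10 and 237 without LLPSEp53_1 replicates 1, 2 and 3. Across all 9 such fits 64 falls and 1 rise remained.

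CDKN1A and MDM2, the most used readouts of p53, did not pass the test. CDKN1A encodes the cyclin-dependent kinase inhibitor p21 (chr6:36676460-36687339, GRCh38) and was at 284 and 286 CPM with p53 and at 271, 281 and 232 CPM with LLPSEp53_2. All LLPSEp53_2 libraries were just below both p53 libraries, and the log2 difference was -0.13 ± 0.13 (SE; edgeR adjusted p = 0.761). In the LLPSEp53_1 libraries CDKN1A was at 399, 423 and 451 CPM, and LLPSEp53_2 was lower than LLPSEp53_1 by a log2 difference of -0.70 (edgeR adjusted p = 0.0302). MDM2, the ubiquitin ligase that marks p53 for degradation (chr12:68808176-68850686), was at 202 and 165 CPM with p53 and at 125, 126 and 165 CPM with LLPSEp53_2. The groups overlapped, with a log2 difference of -0.40 ± 0.19 (edgeR adjusted p = 0.405). These values do not show that the constructs act alike on either gene. On simulated counts, with changed genes of many levels but none of a low level, the test found 10% of genes changed 1.5-fold and 76% of those changed 2-fold. The rate at the level of these 2 genes was not tested.

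The lists of known p53 target genes, 6 in all and grouped by role, held 8 genes that fell and none that rose. Among growth arrest targets 1 of 17 fell, with a median log2 change of -0.16, and that gene was BTG2, an antiproliferative cofactor of mRNA deadenylation (chr1:203305491-203309602). BTG2 was at 24.5 and 20.8 CPM with p53 and at 10.5, 11.9 and 10.3 CPM with LLPSEp53_2. The LLPSEp53_2 libraries were all below both p53 libraries, with a log2 change of -1.06 ± 0.18 (edgeR adjusted p = 0.00798), a call that was lost without p53 replicate 1 (adjusted p = 0.101). None of 19 apoptosis targets passed (median -0.13, from -0.21 to -0.09 with a library left out), among them PMAIP1, a BH3-only killer protein, at 362 and 253 CPM with p53 and 246, 203 and 228 CPM with LLPSEp53_2. None of 10 DNA repair targets passed (median 0.04, from -0.01 to 0.14), and XPC, a sensor of DNA lesions, had a log2 difference of 0.38 ± 0.19 (edgeR adjusted p = 0.448). None of 10 feedback genes passed (median -0.19, and 0.06 without p53 replicate 1), and none of 17 metabolism and autophagy genes did (median -0.08, from -0.19 to 0.01), where TIGAR, a fructose bisphosphatase, had -0.75 ± 0.20 (edgeR adjusted p = 0.0928). At an unadjusted p under 0.05, which 7.94% of all genes tested passed downwards, 5 apoptosis, 0 DNA repair, 2 feedback and 4 metabolism genes were lower, and DESeq2 called 0, 0, 1 and 1 genes of these lists in either direction.

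Among the other p53 targets 7 of 51 fell, with a median of -0.19. They were CSF1, the macrophage growth factor (-1.11), FAM13C (-1.09), SCN3B, a sodium channel subunit (-1.08), INKA2 (-1.03), DPYSL4 (-0.86), KANK3 (-0.79) and TGFA, an EGF receptor ligand (-0.64). CSF1 was at 27.3 and 32.3 CPM with p53 and at 13.4, 13.02 and 14.8 CPM with LLPSEp53_2 (edgeR adjusted p = 0.00521). FAM13C and KANK3 were also lower than with LLPSEp53_1 (edgeR adjusted p = 0.0486 and 0.0143). The 7 calls held in 2 (KANK3) to 8 (CSF1) of 9 fits with a library left out. Over the 6 lists, 8 of 122 genes fell (6.56%, beside 1.83% of all genes tested), none rose, and the median was -0.13. That count was 1 without p53 replicate 1 or 3, 4, 3 and 3 without LLPSEp53_2 replicates 1, 2 and 3, and 15 without LLPSEp53_1 replicate 3.

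Of the genes that WT p53 raised in the separate libraries of 2023, 98 fell with LLPSEp53_2 and none rose. In 2023 280 of 16156 genes (1.73%) rose at least 2-fold with WT over Ctrl, and 269 of them were tested in 2022. The 98 falls are 36.4% of the 269, and at an unadjusted p under 0.05 171 were lower and 1 higher. DESeq2 called 115 lower and 0 higher. Their median log2 change was -0.84 (quartiles -1.36 and -0.32), and 242 lay below 0. Among the 15554 other genes tested in both years the median was 0.01, with 165 lower and 16 higher. Induced genes made up 37.3% of the 263 falls tested in both years and 1.70% of the 15823 genes tested in both years. The number of falls was 48 and 49 without p53 replicates 1 and 3, 66, 67 and 70 without LLPSEp53_2 replicates 1, 2 and 3, and 137 without LLPSEp53_1 replicate 3, and the median stayed between -0.91 and -0.81. The median CPM of the induced genes was 7.93 and 7.88 in p53 replicates 1 and 3, 13.7 in p53 replicate 2, 5.57, 5.83 and 5.35 with LLPSEp53_1, and 3.64, 4.15 and 3.71 with LLPSEp53_2. No LLPSEp53_2 library reached the lowest p53 library.

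The median change was lower in each bin of genes that WT raised more. Genes raised 2 to 4-fold (157) had a median of -0.64 with 47 falls, those raised 4 to 16-fold (86) a median of -1.11 with 38 falls, and those raised 16-fold or more (26) a median of -1.43 with 13 falls. The same split by the level without p53 gave a median of -1.20 where the Ctrl mean was under 1 CPM (123 genes, 51 falls), -0.67 from 1 to 10 CPM (114 genes, 44 falls) and -0.45 at 10 CPM or more (32 genes, 3 falls). The part of the starting level in the split by fold was not tested. With a library left out, the falls ranged from 17 to 76, 23 to 45 and 6 to 16 in the bins by fold and from 27 to 66, 19 to 58 and 1 to 13 in the bins by level, the lowest always without p53 replicate 1 or 3 and the highest without LLPSEp53_1 replicate 3. The 30 induced genes of the 6 target lists had a median of -0.38 with 6 falls, against -0.94 with 92 falls for the 239 induced genes outside those lists (0 to 9 and 48 to 128 falls with the same libraries left out). Of the 35 genes that WT lowered at least 1.5-fold in 2023 (0.217% of genes tested that year), 3 fell and none rose with LLPSEp53_2, with a median of -0.01 (-0.20 and 0.20 without p53 replicates 1 and 3; 0 falls without p53 replicate 3 or LLPSEp53_2 replicate 1 or 2, 1 without p53 replicate 1 and 5 without LLPSEp53_1 replicate 3).

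Of the 10 genes with the largest WT induction at a substantial level in 2023, 9 are described here, and 8 of these 9 fell with LLPSEp53_2. NSG1, a neuronal endosome protein, was at 21.6 and 15.1 CPM with p53 and at 7.09, 6.67 and 6.98 CPM with LLPSEp53_2 (log2 change -1.41 ± 0.19, edgeR adjusted p = 0.00182, kept in all 9 fits with a library left out). HES2, a repressor of the HES family, was at 15.4 and 17.4 CPM against 7.34, 9.85 and 5.53 CPM (-1.12 ± 0.22, edgeR adjusted p = 0.0184). DRAXIN, a secreted axon guidance protein, was at 17.5 and 13.5 CPM against 9.37, 9.20 and 8.62 CPM (-0.77 ± 0.17, edgeR adjusted p = 0.0406, kept in 3 of 9 fits). All 3 had LLPSEp53_2 libraries below both p53 libraries, with LLPSEp53_1 between them. FAM13C, DPYSL4, BTG2, KCNJ12 and FGFR3 make up the 8. TP53I11 was the exception, at 25.8 and 31.3 CPM with p53 and at 22.01, 27.3 and 22.1 CPM with LLPSEp53_2, where the groups overlapped (-0.26 ± 0.17, edgeR adjusted p = 0.561).

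ARC had the smallest p of all 17459 genes tested. It encodes an immediate early protein of neurons that takes part in synaptic plasticity, and lies on chromosome 8. ARC was at 93.5 and 101 CPM with p53, at 43.9, 51.5 and 52.0 CPM with LLPSEp53_1 and at 12.5, 17.3 and 12.7 CPM with LLPSEp53_2. The 3 groups did not overlap, and p53 replicate 2 was higher still at 199 CPM. The log2 change with LLPSEp53_2 was -2.78 ± 0.17 (edgeR adjusted p = 1.02e-05; at most 0.000516 with a library left out), and LLPSEp53_2 was lower than LLPSEp53_1 by -1.79 (edgeR adjusted p = 0.00038). In 2023 ARC rose from 2.08 CPM in Ctrl to 13.3 CPM in WT.

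PLK5, a member of the polo-like kinase family without a working kinase domain (chr19:1524074-1536046), had the largest fall among genes of substantial level. It was at 5.69 and 6.76 CPM with p53, 3.37, 3.55 and 3.39 CPM with LLPSEp53_1 and 0.863, 0.907 and 0.692 CPM with LLPSEp53_2. The last group rests on 14, 14 and 11 reads. The log2 change was -2.91 ± 0.25 (edgeR adjusted p = 0.000296), kept in all 9 fits, and the difference from LLPSEp53_1 was -2.06 (edgeR adjusted p = 0.00257). The 15 largest falls at that level also held RTN4RL1 (-2.63), a Nogo receptor relative, UNCX (-2.50), a homeobox factor, and DOC2B (-2.48), a calcium sensor of vesicle release. ANKRD34B (-2.32), ENTPD2 (-2.17), an ectonucleotidase, and the homeobox factors DMBX1 (-2.13) and POU3F1 (-2.09) were among them too. Of these 7, UNCX lost the call without p53 replicate 3 and ANKRD34B without p53 replicate 1, and the others kept it in all 9 fits.

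LHX3 and SFRP4 differed between the constructs. LHX3, a LIM homeobox factor of motor neurons and the pituitary, was at 5.82 and 7.38 CPM with p53 and 9.30, 11.3 and 12.1 CPM with LLPSEp53_1, but at 1.17, 2.07 and 0.755 CPM with LLPSEp53_2. Its LLPSEp53_2 libraries were the lowest and its LLPSEp53_1 libraries the highest of those collected together. The log2 change from p53 was -2.31 ± 0.32 (edgeR adjusted p = 0.00236) and the difference from LLPSEp53_1 was -3.03 (edgeR adjusted p = 0.000479). SFRP4, a secreted WNT antagonist, was at 10.99 and 7.57 CPM with p53, 8.86, 9.98 and 8.92 CPM with LLPSEp53_1 and 2.03, 1.81 and 1.82 CPM with LLPSEp53_2. SFRP4 fell by 2.29 on the log2 scale (edgeR adjusted p = 0.000306), with the same difference of -2.29 from LLPSEp53_1 (edgeR adjusted p = 0.00038). WT raised both genes in 2023, LHX3 by a log2 change of 4.85 and SFRP4 by 5.03.

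Of the 15 largest falls, 3 were low in p53 replicate 2 as well. The ribosomal protein pseudogenes RPL17P18 and RPL37AP1 fell with LLPSEp53_2 (-2.46 each), but p53 replicate 2 and LLPSEp53_1 replicate 3 were below the rest of their groups. RPL37AP1 was at 11.1 and 11.7 CPM in p53 replicates 1 and 3, 1.55 CPM in p53 replicate 2, 17.3, 25.3 and 5.79 CPM with LLPSEp53_1 and 1.54, 2.59 and 2.08 CPM with LLPSEp53_2. Their sequences are close to those of the parent genes, so how the authors' counting split the reads makes them uncertain, and the calls held in 4 and 5 of 9 fits. CCL2, a monocyte chemokine, was at 18.9 and 43.4 CPM with p53 and at 6.53, 3.04 and 8.36 CPM with LLPSEp53_2 (-2.38, edgeR adjusted p = 0.0196, kept in 6 of 9 fits). It was also low in p53 replicate 2, at 4.99 CPM, and in LLPSEp53_1, at 6.30, 3.42 and 11.7 CPM.

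**Figure D1:**
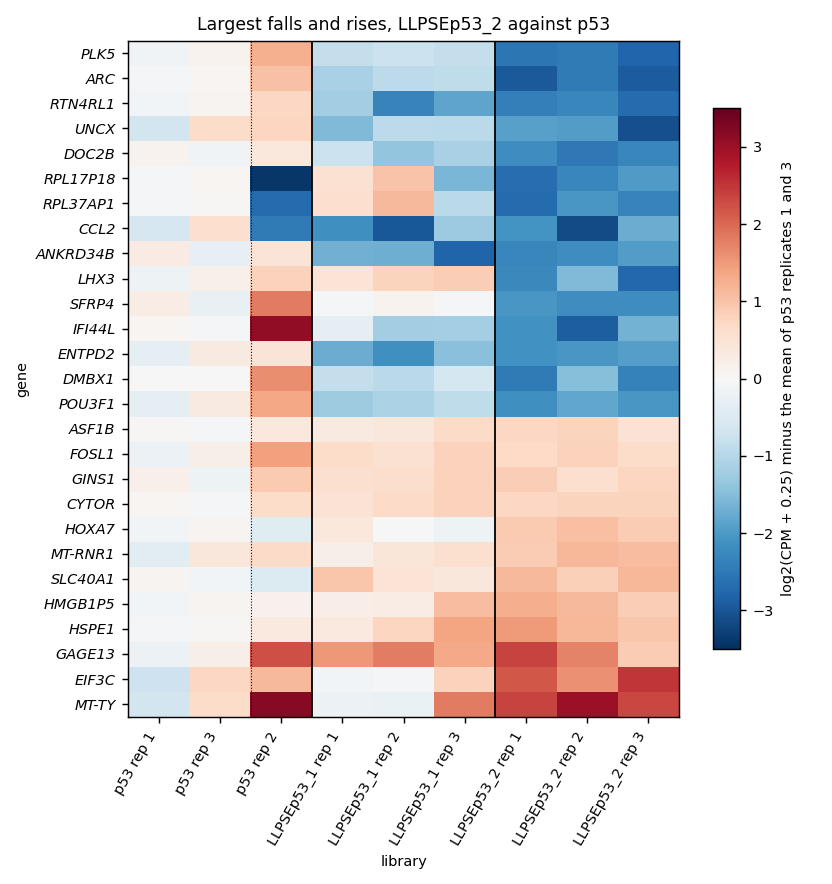
Heat map of log2(CPM + 0.25) minus the mean of p53 replicates 1 and 3, for the 15 largest falls and 12 of the 13 largest rises with a call and an average log2 CPM of at least 2 (rows), in the 9 libraries of 2022 (columns; blue lower, red higher). ARC and PLK5 are near white in p53 replicates 1 and 3, red in p53 replicate 2 and darkest blue in LLPSEp53_2, LHX3 and SFRP4 are blue with LLPSEp53_2 and not with LLPSEp53_1, and RPL17P18, RPL37AP1 and CCL2 are blue in p53 replicate 2 as well.

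At a low level, with an average log2 CPM under 2, the largest falls were CLEC7A (-4.12), KCNK9 (-4.11), WFIKKN2 (-3.93), HRH3 (-3.91) and CACNA1I (-3.76), fitted values that depend on few reads. KCNK9, an acid-sensitive potassium leak channel, was at 5.37 and 5.77 CPM with p53 and at 0.247, 0.518 and 0.189 CPM with LLPSEp53_2, the last from 4, 8 and 3 reads. KCNK9 kept its call in all 9 fits (edgeR adjusted p = 0.0003), HRH3, a histamine receptor, did too, and CLEC7A and WFIKKN2, each with an LLPSEp53_2 library at 0, kept it in 4.

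Genes of neurons and of signalling pathways were among the falls. Their lists were chosen with earlier results of these data known, so the shares describe the lists and are no independent evidence. Of 32 neuronal and synaptic genes tested, 11 fell (34.4%, beside 1.83% of all genes tested) and none rose. Their median was -0.25 (-0.41 and -0.12 without p53 replicates 1 and 3). The count of falls was between 6, without p53 replicate 3, and 12 with a library left out. KCNJ12, an inward rectifier potassium channel (chr17:21376197-21419872), was at 38.7 and 34.1 CPM with p53, 23.8, 27.1 and 28.1 CPM with LLPSEp53_1 and 10.6, 11.5 and 11.2 CPM with LLPSEp53_2. The groups did not overlap, with a log2 change of -1.71 ± 0.15 (edgeR adjusted p = 0.000296) and a difference from LLPSEp53_1 of -1.25 (edgeR adjusted p = 0.00197). KCNJ12 has a near-identical copy, KCNJ18, so the split of reads between them is uncertain. CAMK2B, a calcium-dependent kinase of synapses, had -2.28, CACNA1H, a T-type calcium channel, -1.96, the RNA-binding protein ELAVL3 -1.95, and the NMDA receptor subunit GRIN2C -1.82. KCNC1 (-1.54), NSG1 (-1.41), CHRM4 (-1.35), a muscarinic receptor, SYT7 (-1.35), a synaptotagmin, RTN4RL1 and SCN3B were the others. Of the 11, KCNJ12 was called lower than with LLPSEp53_1 and the other 10 were not. ELAVL3, at 7.03 and 7.51 CPM with p53 and 1.66, 2.72 and 1.26 CPM with LLPSEp53_2, was at 0.659, 0.804 and 0.246 CPM with LLPSEp53_1.

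Receptor tyrosine kinases and their ligands gave 5 falls of 20 (25%, beside 1.83% of all genes tested) and no rise, with a median of -0.50. The count was 2 without p53 replicate 1 or any 1 LLPSEp53_2 library. It was 3 without p53 replicate 3 or LLPSEp53_1 replicate 2, and 7 without LLPSEp53_1 replicate 3. FGFR3, a fibroblast growth factor receptor (chr4:1793293-1808872), was at 103 and 120.5 CPM with p53, 62.6, 66.2 and 69.7 CPM with LLPSEp53_1 and 36.3, 42.0 and 32.8 CPM with LLPSEp53_2. Its groups stepped down without overlap (log2 change -1.59 ± 0.15, edgeR adjusted p = 0.0003, kept in all 9 fits), and LLPSEp53_2 was lower than LLPSEp53_1 by -0.84 (edgeR adjusted p = 0.0215). RET, the receptor of glial-derived factors, was at 26.2 and 26.3 CPM against 8.94, 9.59 and 9.18 CPM (-1.51 ± 0.16, edgeR adjusted p = 0.000592), close to its LLPSEp53_1 values of 11.6, 12.2 and 9.29 CPM. The ligands FGF18 (-0.91) and VEGFC (-0.69) and the neurotrophin receptor NTRK2 (-2.51, at most 3.71 CPM) were the other 3.

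The WNT and Notch list gave 7 falls of 25 (28.0%, beside 1.83% of all genes tested) and no rise, with a median of -0.61. Its count was 3 without p53 replicate 1 or 3, 4 without LLPSEp53_2 replicate 3 and 12 without LLPSEp53_1 replicate 3. The WNT ligands WNT11 (-1.85), WNT7B (-1.58) and WNT4 (-1.43) fell together with DKK1 (-0.81), a secreted inhibitor of WNT receptors. On the Notch side DLL1 (-1.04), a ligand, NRARP (-1.04), a feedback inhibitor, and HES2 fell. WNT7B was at 19.2 and 20.1 CPM with p53 and at 7.46, 7.64 and 4.59 CPM with LLPSEp53_2, and its LLPSEp53_1 libraries lay in the same range, at 5.71, 6.37 and 6.22 CPM. Axon guidance genes gave 5 falls of 26 (19.2%; 1 without p53 replicate 3, 2 without p53 replicate 1 or LLPSEp53_2 replicate 1 or 3): the ephrin receptor EPHB3 (-1.67), the ephrin EFNA1 (-1.16), netrin NTN1 (-0.98), the semaphorin receptor PLXND1 (-0.90) and DRAXIN. EPHB3 was at 25.3 and 27.4 CPM with p53 and at 8.01, 8.55 and 8.18 CPM with LLPSEp53_2 (edgeR adjusted p = 0.0003, kept in all 9 fits). Of 21 BMP and activin genes 3 fell (14.3%; 1 without p53 replicate 3, 2 without p53 replicate 1 or LLPSEp53_2 replicate 2, 6 without LLPSEp53_1 replicate 3): INHBB, an activin subunit (-1.46), BMP7 (-1.31) and SMAD7, an inhibitor of the pathway (-1.01). INHBB, at 28.8 and 28.0 CPM with p53 and 9.93, 12.4 and 8.68 CPM with LLPSEp53_2, was also lower than with LLPSEp53_1 (edgeR adjusted p = 0.0254).

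**Figure D2:**
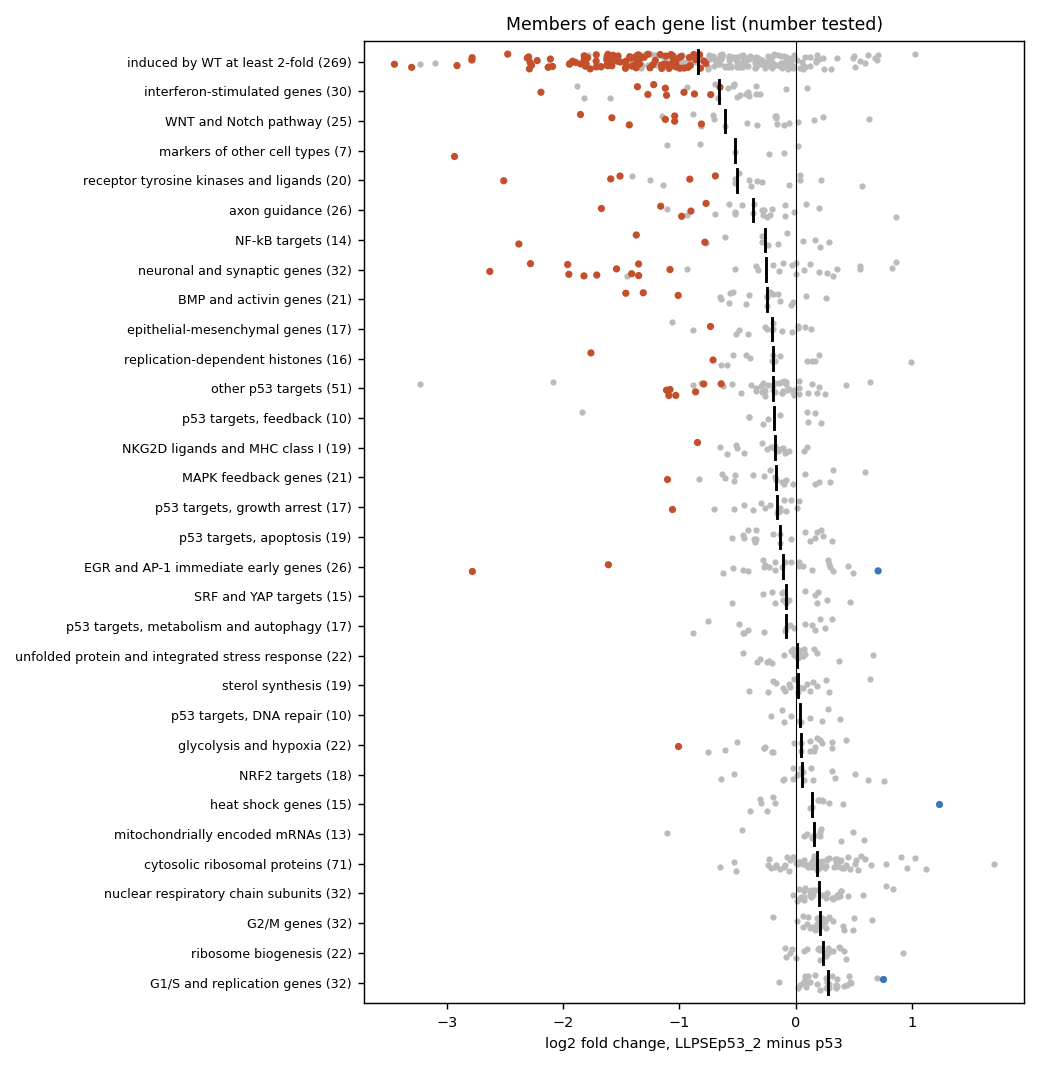
Log2 fold change of LLPSEp53_2 minus p53 (horizontal axis) for every tested member of each gene list (rows, with the number tested), 1 point per gene, called genes in orange (lower) or blue (higher), and a black bar at the median. The induced genes, at -0.84, and the interferon-stimulated genes, at -0.66, have the lowest medians, and the G1/S genes, at 0.27, the highest.

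Interferon-stimulated genes are the antiviral programme switched on through STAT and IRF factors, and 10 of the 30 tested fell with LLPSEp53_2. The 10 are 33.3% of the list, beside 1.83% of all genes tested, and none rose. Of the 30, 29 lay below 0, as did 49.1% of all genes tested, and the median was -0.66. At an unadjusted p under 0.05, 24 were lower, beside 7.94% of all genes tested. Many of these genes carry in their promoter an interferon-stimulated response element (ISRE), where IRF and STAT factors bind, and 3 promoters of genes that fell are shown with this element. Each is the 250 bases before the RefSeq start (GRCh38.p14), 5′ to 3′ on the strand of the gene, with matches to the ISRE core (GAAA, any 2 bases, GAAA) or its reverse complement in capitals.
IFI44L, chr1:78620198-78620447, plus strand: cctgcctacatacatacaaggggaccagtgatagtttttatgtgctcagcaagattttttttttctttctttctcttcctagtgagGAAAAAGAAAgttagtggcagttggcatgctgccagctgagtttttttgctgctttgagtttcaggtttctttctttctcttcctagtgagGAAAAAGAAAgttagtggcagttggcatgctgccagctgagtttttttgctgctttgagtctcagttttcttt
IFI6, chr1:27672193-27672442, minus strand: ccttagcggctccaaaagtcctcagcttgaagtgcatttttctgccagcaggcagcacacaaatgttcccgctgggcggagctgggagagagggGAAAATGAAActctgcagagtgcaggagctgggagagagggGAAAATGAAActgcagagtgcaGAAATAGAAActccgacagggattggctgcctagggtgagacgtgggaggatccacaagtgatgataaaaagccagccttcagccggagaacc
IFIT5, chr10:89414318-89414567, plus strand: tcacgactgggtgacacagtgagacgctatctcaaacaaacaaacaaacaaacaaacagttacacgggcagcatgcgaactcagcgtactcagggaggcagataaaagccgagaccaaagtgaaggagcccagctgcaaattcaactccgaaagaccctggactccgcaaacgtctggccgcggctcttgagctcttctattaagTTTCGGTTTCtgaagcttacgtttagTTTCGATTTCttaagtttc

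Searched on both strands from 250 bases before to 50 after the start, the core was present in 6 of the 7 interferon genes that fell and had a entry in the RefSeq table, and in 16 of 24 (66.7%) of those tested. Of all 27305 RefSeq promoters 3.65% held it, of the promoters of genes tested 2.89%, of the 214 promoters of genes that fell 7.48%, and of the 181 promoters of WT-induced genes 1.66%. A match is a description of the letters and not a bound site. A p53 core pattern has 2 copies of CATG and any 6 bases between. It was found in 1 of the 214 promoters of genes that fell and in 0 of the 181 of WT-induced genes. Of all promoters 0.392% held it, and a smaller share of the promoters of genes tested. At so low a share, sets of this size would hold almost none in any case, and sites outside the searched window were not read. These counts therefore cannot tell whether the genes carry p53 sites. The GC-rich EGR box GCGGGGGCG was found in 14.5% of the promoters of genes that fell, against 8.33% for genes tested; no correction was made for their higher GC content.

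IFI44L, a feedback protein of the interferon response whose promoter is shown above, was at 23.9 and 21.4 CPM with p53, 17.9, 9.58 and 9.72 CPM with LLPSEp53_1 and 4.99, 2.85 and 6.98 CPM with LLPSEp53_2. Its log2 change was -2.19 ± 0.32 (edgeR adjusted p = 0.00305), and it kept the call in all 9 fits. MX1, an antiviral GTPase, was at 76.2 and 86.3 CPM with p53 and at 37.4, 27.8 and 39.1 CPM with LLPSEp53_2 (-1.22 ± 0.19, edgeR adjusted p = 0.00501). The sensors and synthetases of the viral RNA response fell too, OAS1 by 1.36, OAS2 by 1.27, OAS3 by 1.11, OASL by 0.65 and IFIH1, which encodes MDA5, by 0.73 on the log2 scale. IFI6 (-1.12), IFIT5 (-0.96) and the transcription factor IRF7 (-0.87) complete the 10. IFI6 was at 256 and 217 CPM with p53 and at 132, 96.9 and 96.7 CPM with LLPSEp53_2, lower than with LLPSEp53_1 (edgeR adjusted p = 0.031).

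Interferon genes were high in the p53 library of the other batch. IFI44L stood at 196 CPM and MX1 at 599.7 CPM in p53 replicate 2, and the summed level of the 30 genes was 30978 CPM there, against 8598 and 7917 CPM in p53 replicates 1 and 3 and 5835, 4753 and 5508 CPM in LLPSEp53_2 replicates 1 to 3. None of the 30 was among the genes that WT raised in 2023, when the list's median log2 change was -0.37. IFI44L was then at 13.8, 53.9 and 22.2 CPM in Ctrl replicates 1 to 3 and at 14.3, 36.7 and 17.6 CPM in WT replicates 1 to 3. Replicate 2 stood apart in both groups of 2023, being the highest for all 30 genes. The 10 calls became 4 without p53 replicate 1, 1 without p53 replicate 3, 6, 3 and 6 without LLPSEp53_2 replicates 1, 2 and 3, and 16 and 21 without LLPSEp53_1 replicates 1 and 3. TAP1, a peptide transporter of MHC class I presentation, was the single member of the NKG2D ligand and MHC class I list that fell (1 of 19; 4 without LLPSEp53_1 replicate 3 and 0 without p53 replicate 1 or 3 or LLPSEp53_2 replicate 2), at 233 and 246 CPM with p53 and 147, 128 and 124 CPM with LLPSEp53_2 (-0.85, edgeR adjusted p = 0.00814).

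Of 14 NF-kB targets 3 fell (1 without LLPSEp53_2 replicate 1 or 2, 0 without p53 replicate 3, 5 without LLPSEp53_1 replicate 3): CCL2, TNFAIP2 (-1.37) and TRAF1 (-0.78), an adaptor of TNF receptors that was at 155 and 177 CPM with p53 and at 93.6, 92.4 and 103 CPM with LLPSEp53_2. NFKBIA, the inhibitor that NF-kB induces, had -0.77 ± 0.18 (edgeR adjusted p = 0.0532). Among 26 EGR and AP-1 immediate early genes 2 fell and 1 rose, with a median of -0.10 (-0.21 and -0.02 without p53 replicates 1 and 3). EGR2, a zinc finger factor of myelinating cells, was at 19.1 and 18.9 CPM with p53, 12.5, 13.5 and 13.5 CPM with LLPSEp53_1 and 5.61, 6.74 and 6.29 CPM with LLPSEp53_2. EGR2 kept its call in all 9 fits (-1.61 ± 0.16, edgeR adjusted p = 0.000355) and was lower than with LLPSEp53_1 by -1.09 (edgeR adjusted p = 0.00621). ARC is the other fall, and the rise was FOSL1, an AP-1 subunit, at 232 and 312 CPM with p53 and 439, 470 and 423 CPM with LLPSEp53_2 (0.71 ± 0.16, edgeR adjusted p = 0.0381, kept in 3 of 9 fits). In p53 replicate 2 FOSL1 was at 730 CPM, above every LLPSEp53_2 library. DUSP8 (-1.11) fell among 21 MAPK feedback genes, H3C2 (-1.76) and H4C8 (-0.71) among 16 histone genes, ADM (-1.01) among 22 glycolysis and hypoxia genes and CLDN1 (-0.74) among 17 epithelial-mesenchymal genes. Each of these 5 calls was lost without p53 replicate 3. The falls were 4.76% of the MAPK feedback, 12.5% of the histone, 4.55% of the glycolysis and hypoxia and 5.88% of the epithelial-mesenchymal genes. They were 21.4% of the NF-kB targets and 7.69% of the immediate early genes, where 3.85% rose. Of all genes tested, 1.83% fell and 0.103% rose.

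Among the genes that rose with LLPSEp53_2, EIF3C, a subunit of a translation initiation factor, was at 5.56 and 15.5 CPM with p53 and at 43.0, 28.6 and 53.9 CPM with LLPSEp53_2 (1.99 ± 0.41, edgeR adjusted p = 0.0246). Its near-identical copy EIF3CL had -1.26 (edgeR adjusted p = 0.436), so the rise is uncertain. HSPE1, the mitochondrial co-chaperonin, was at 24.1 and 25.3 CPM with p53 and at 69.1, 55.3 and 49.0 CPM with LLPSEp53_2 (1.23 ± 0.26, edgeR adjusted p = 0.0319), and was the single heat shock gene of 15 that rose. With LLPSEp53_1 HSPE1 was at 31.3, 41.7 and 65.2 CPM, where replicate 3 alone lay within the range of LLPSEp53_2. SLC40A1, the iron exporter ferroportin (1.10), HOXA7 (0.98), the long noncoding RNA CYTOR (0.76), the replication factor GINS1 (0.75) and the histone chaperone ASF1B (0.68) also rose, as did the mitochondrial ribosomal RNA MT-RNR1 (0.99) and tyrosine tRNA MT-TY (2.65). GAGE13 (1.88), of a multigene family, and the pseudogenes HMGB1P5 (1.10) and HSPD1P4 (2.56) share sequence with other genes and are uncertain. Some of these genes varied by library within LLPSEp53_1. Its replicates 1 to 3 had 13, 14 and 75 reads of MT-TY, 10, 14 and 45 of HSPD1P4 and 298, 330 and 634 of HMGB1P5. HOXA7 had the other order, at 7.5, 5.7 and 5.0 CPM. EMC6 (3.06) and NAT16 (2.0) rose at a low level, under 5 CPM in all p53 and LLPSEp53_2 libraries. Each of the 14 rises of this paragraph lost its call in at least 2 of 9 fits.

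Growth-related lists lay slightly above 0 with almost no calls. Of 32 G1/S and replication genes, 31 lay above 0 with a median of 0.27; 1, GINS1, rose, and 12 passed an unadjusted p under 0.05 upwards, which 4.89% of all genes tested did. The G2/M genes, which p53 and p21 can hold down through the DREAM complex, had a median of 0.21 with 31 of 32 above 0. None had a call, while 5 passed unadjusted and DESeq2 called 0. In the separate comparison of WT with Ctrl the list medians were 0.01 for G2/M and -0.11 for G1/S. The part of p53 activity in the shift with LLPSEp53_2 was not tested. Medians were 0.24 for 22 ribosome biogenesis genes, 0.18 for 71 cytosolic ribosomal proteins, 0.20 for 32 nuclear respiratory chain subunits and 0.16 for 13 mitochondrial mRNAs, none of them with a call by edgeR; 3, 15, 4 and 2 of their members passed an unadjusted p under 0.05 upwards, and DESeq2 called 0, 3, 0 and 1. With a library left out the medians ranged from 0.20 to 0.37 for G1/S, 0.12 to 0.33 for G2/M, 0.20 to 0.28 for ribosome biogenesis, 0.07 to 0.28 for the ribosomal proteins, 0.10 to 0.31 for the respiratory chain subunits and 0.07 to 0.25 for the mitochondrial mRNAs. The highest values for G1/S, G2/M and the respiratory chain subunits came without p53 replicate 1, and the lowest for G1/S and G2/M without p53 replicate 3. The medians with LLPSEp53_1, which share the p53 libraries, were 0.25 for G1/S, 0.23 for G2/M and 0.39 for the ribosomal proteins. The unfolded protein, NRF2, sterol and SRF and YAP lists held no call either, with medians of 0.01, 0.05, 0.02 and -0.08, each from at least -0.12 to at most 0.12 with a library left out; in the last, THBS1, a matrix glycoprotein, had -0.55 ± 0.19 (edgeR adjusted p = 0.212). At an unadjusted p under 0.05 these 4 lists had 1, 2, 1 and 2 genes lower and 1, 0, 1 and 1 higher, and DESeq2 called 0, 0, 0 and 1.

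Beside LLPSEp53_1, which was read against the same p53 libraries, LLPSEp53_2 had the larger number of calls: LLPSEp53_1 was lower than p53 in 146 genes (0.836%) and higher in 9 (0.0515%). Of the 319 falls, 301 were also lower than p53 on average with LLPSEp53_1, whose median log2 change over all genes tested was -0.00. The falls were picked against the same p53 libraries, so this overlap is partly built in and is no independent evidence. Of these 319, 113 were called lower there too, beside the 0.836% of all genes tested. In the direct test LLPSEp53_2 was lower than LLPSEp53_1 in 61 genes (0.349%) and higher in 4 (0.0229%), and 33 of the 319 falls were among the 61. Of the 269 induced genes, 34 were called lower with LLPSEp53_2 than with LLPSEp53_1 and none higher, with a median difference of -0.42, and the median against p53 was -0.35 for LLPSEp53_1 beside -0.84 for LLPSEp53_2. For the 26 genes that WT raised 16-fold or more these medians were -0.03 and -1.43, and 6 of the 26 were called lower with LLPSEp53_2 than with LLPSEp53_1. Interferon-stimulated genes had a median of -0.17 with LLPSEp53_1, and 2 of 30 were called lower with LLPSEp53_2 in the direct test. The neuronal and signalling lists had about as low a median with LLPSEp53_1, with fewer calls. Its medians were -0.32 for neuronal genes (9 called lower, beside 11 with LLPSEp53_2), -0.42 for receptor tyrosine kinases (2 beside 5) and -0.56 for WNT and Notch (4 beside 7, with 1 called higher). Axon guidance genes had -0.46 (3 beside 5), and BMP and activin genes -0.36 (0 beside 3). In the direct test the median differences of these lists were -0.01, -0.04, -0.10, 0.03 and -0.13, in that order.

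Of the 7 tested markers of other cell types MBP, a myelin protein, was the most abundant, at 39.5 and 41.1 CPM with p53 and at 39.2, 42.2 and 41.4 CPM with LLPSEp53_2. The other 6 lay between 0.185 and 3.45 CPM in these libraries. PTPRC, CD3E, HBB and SCGB1A1 were at 0 in the p53 and LLPSEp53_2 libraries, and COL3A1 was the single marker that passed the test, at 0.639 and 2.36 CPM with p53 and at 0.185, 0.194 and 0.189 CPM with LLPSEp53_2 (kept in 4 of 9 fits with a library left out). The part of these markers in the results was not tested. In bulk RNA, fewer cells of a type and less RNA per cell cannot be told apart.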

How the data were processed

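RNA-seq reads were trimmed with Trimmomatic 0.39 and aligned with STAR 2.7.10a to GRCh38, per the submitters' processing notes. The deposited files hold the authors' whole-number counts of reads per gene, not normalised, for 61552 Ensembl IDs; the counting tool, annotation and strand setting are unknown (not given in the sources used here), so reads of overlapping and antisense genes may not be told apart. Positions come from GENCODE release 29 and promoters from RefSeq.

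The test over the 9 libraries of 2022 was run with edgeR 4.0.16 under R 4.3.3 (TMM scaling, filterByExpr, quasi-likelihood test, terms for group and for the batch of p53 replicate 2, Benjamini-Hochberg adjustment over 17459 genes, threshold 0.05). All adjusted p-values of single genes are edgeR's, and ± is the standard error of a log2 change. CPM are library-scaled. With 2 p53 libraries against 3, an exact permutation test of a single gene could not go below p = 0.2. WT and Ctrl were tested on their 6 libraries of 2023, and levels of the 2 years were scaled separately.

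The named genes were CDKN1A, MDM2, the 15 largest rises and falls with no overlap of libraries and a mean log2 CPM not under 2, 5 of each below that level, every called member of 31 gene lists or the 4 with the smallest p in lists with fewer than 4, and the 10 strongest WT-induced genes. Members and lists were chosen with earlier results of these data known. Alternatives were DESeq2 1.42.0, other scaling, no filter, no batch term, fewer groups, a replicate block, a GC correction (loess span 0.3) and each library left out. The steps were tested on simulated counts of 17046 genes, where 0.042% of unchanged genes were called and 100% of those changed 4-fold were found. No low-level gene was among the changed ones, and p53 replicate 2 was simulated without its batch difference, so these rates do not cover either. No libraries of a group were duplicates. The results of 2 genes are not reported here. Counting limits cover counting error only.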

Additional observations from a re-analysis of the deposited data

How the results depend on the processing

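The 319 falls became 518 with the GC trend removed, 601 without a filter on low counts, 753 with only the p53 and LLPSEp53_2 libraries in the fit and 176 with a replicate block. With a library left out they ranged from 86 to 691. The 18 rises became 57 with DESeq2, 65 with the GC trend removed, 6 without the batch term, 222 without the filter, 287 with only the 2 groups, 7 with the replicate block and 11 at a minimum of 2-fold, and ranged from 1 to 237 with a library left out. Deviations from the group mean in same-numbered p53 and LLPSEp53_2 libraries had correlations of 0.004 and -0.229. The deviations of 2 p53 libraries mirror each other, so these values cannot tell whether the numbers pair the libraries. Falls among the WT-induced genes numbered 51 when induced meant at least 4-fold, and 48 to 137 with a library left out. The median of the induced genes was -1.29 without the batch term, -0.43 for every gene called higher in WT and -1.17 for those at least 4-fold higher, and from -0.91 to -0.81 with a library left out. No named gene changed direction while called. Of 92 named genes with a call, 25 kept it with each library left out; 60 lost it without p53 replicate 3, 50 without p53 replicate 1, 43, 45 and 38 without LLPSEp53_2 replicates 1, 2 and 3, and 18 without LLPSEp53_1 replicate 2. DESeq2 lost 2, the GC correction 3 and the replicate block 36. The cause of these differences was not tested. The p53 level rests on 2 libraries, and changes of 1.5-fold are mostly below what this design detects.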

Other observations

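Ion channel and developmental transcription factor genes, grouped by symbol after their values were seen, held falls with LLPSEp53_2, some of them already named above. KCNJ12, KCNC1 and KCNK9 are counted again among the potassium channel genes, and UNCX, LHX3, DMBX1 and POU3F1 among the homeobox genes. Of 60 potassium channel genes tested, 13 fell (21.7%, beside 1.83% of all genes tested) and none rose, with a median log2 change of -0.44. With LLPSEp53_1 their median was -0.47. The falls with LLPSEp53_2 numbered 8 and 7 without p53 replicates 1 and 3. KCNK10, a leak channel, was at 11.6 and 10.9 CPM in p53 replicates 1 and 3, 8.27, 8.24 and 5.97 CPM with LLPSEp53_1 and 2.47, 3.56 and 2.89 CPM with LLPSEp53_2, lower than with either (edgeR adjusted p = 0.000781 against p53 and 0.0168 against LLPSEp53_1). KCNF1, a modulatory subunit, was at 15.8 and 16.5 CPM with p53 and 5.43, 6.35 and 5.03 CPM with LLPSEp53_2 (edgeR adjusted p = 0.00124). KCNH2, the cardiac hERG channel, was at 18.0 and 18.9 CPM with p53 and at 8.51, 9.85 and 7.92 CPM with LLPSEp53_2, above its LLPSEp53_1 libraries at 5.42, 7.04 and 6.59 CPM.

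Of 78 POU, LIM and other homeobox genes outside the HOX clusters, 16 fell (20.5%) and none rose. Over all genes tested 1.83% fell and 0.103% rose. The homeobox falls numbered 11 and 10 without p53 replicates 1 and 3. Their list had a median of -0.26, beside -0.31 with LLPSEp53_1. Of 34 HOX genes 1 fell (HOXD10, 2.94%) and 1 rose (HOXA7), with a median of 0.16. The calls of HOXD10 and HOXA7 held in 3 of 9 fits with a library left out and were lost without p53 replicate 1 or 3. POU4F3, a factor of sensory hair cells, was at 4.15 and 3.04 CPM with p53, 3.81, 4.02 and 3.75 CPM with LLPSEp53_1 and 0.308, 0.259 and 0.503 CPM with LLPSEp53_2, lower than with LLPSEp53_1 (edgeR adjusted p = 0.00046). SOX7, a factor of endothelial development, was also lowest with LLPSEp53_2, with 22.6 and 21.6 CPM with p53, 29.1, 38.1 and 31.7 CPM with LLPSEp53_1 and 7.89, 5.96 and 8.11 CPM with LLPSEp53_2 (edgeR adjusted p = 0.000771 against p53 and 0.000203 against LLPSEp53_1). SOX8 fell in the comparison with p53 by 1.74 on the log2 scale and was also lower than with LLPSEp53_1 (edgeR adjusted p = 0.0156). Of 109 ribosomal protein pseudogenes, which share reads with their parent genes, 5 fell (4.59%, beside 1.83% of all genes tested). That count was 1 without p53 replicate 1 or 3, and the median of the 109 was 0.11. All 5 that fell were lower in p53 replicate 2 than in p53 replicates 1 and 3.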
